A study of Mus musculus with 6 samples.

Results

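Mt1 and Mt2 encode the metallothioneins expressed most widely in mouse tissues, and they were 2 of the 14597 genes in the deposited count table. They were chosen for their measured level and co-detection in T cells that carried Cd4, Cd8, Foxp3, Ccr8, Pdcd1 or cell cycle transcripts and in the 6 libraries, so those values are given as a description, with no test. The cells were live TCRβ+ T cells, sorted for single-cell RNA sequencing 16 days after subcutaneous implantation of B16-F10, a mouse melanoma line. The hosts were Foxp3-EGFP-DTR mice of 8 to 14 weeks, in which the endogenous Foxp3 gene drives EGFP and the diphtheria toxin receptor. The labels give 3 mice injected with PBS and 3 injected with diphtheria toxin (DTx), which removes Foxp3+ regulatory T (Treg) cells, at 1 μg on days 7, 9, 11 and 13. The 6 library numbers in the cell names were linked to no labelled sample, so PBS and DTx were not compared and libraries are not replicates of a group.

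Metallothioneins are small, cysteine-rich proteins that bind zinc and copper. Their genes are switched on by zinc through the transcription factor MTF1, and also by glucocorticoids and oxidative stress, and they are known from T cells as genes that go up after activation and in dysfunctional tumor-infiltrating CD8+ T cells. Mt3, a relative best known from brain, and Mt4, a relative of squamous epithelium, lie in the same gene cluster.

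In GRCm38 with the GENCODE annotation, Mt1 (ENSMUSG00000031765.8) spans chr8:94179082-94180327 and Mt2 (ENSMUSG00000031762.7) spans chr8:94172664-94173568, both on the plus strand with 3 exons. The genes are 5513 bases apart. Mt3 (ENSMUSG00000031760.9) lies on the same strand at chr8:94152607-94154146. The exonic coding sequences are shown because the cysteine codons that define the family, written in capitals, account for 20 of 62 codons in Mt1 and Mt2, stop codon included, and for 20 of 69 in Mt3.
Mt1: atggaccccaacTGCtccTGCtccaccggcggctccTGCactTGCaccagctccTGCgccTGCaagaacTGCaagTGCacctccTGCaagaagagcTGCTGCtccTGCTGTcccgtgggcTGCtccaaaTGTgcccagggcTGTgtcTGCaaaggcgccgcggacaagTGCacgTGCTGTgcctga
Mt2: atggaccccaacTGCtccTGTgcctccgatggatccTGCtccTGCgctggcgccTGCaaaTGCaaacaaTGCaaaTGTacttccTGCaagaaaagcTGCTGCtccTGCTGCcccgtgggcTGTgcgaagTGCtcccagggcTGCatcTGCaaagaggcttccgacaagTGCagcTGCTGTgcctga
Mt3: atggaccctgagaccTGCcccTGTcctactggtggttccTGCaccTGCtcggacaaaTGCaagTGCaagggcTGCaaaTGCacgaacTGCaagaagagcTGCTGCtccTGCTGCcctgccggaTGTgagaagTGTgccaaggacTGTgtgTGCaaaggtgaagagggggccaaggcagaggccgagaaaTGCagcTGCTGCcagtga
The Mt1 and Mt2 coding sequences had the same base at 148 of 186 positions (79.6%). The longest stretch shared by the annotated transcripts was 20 bases for Mt1 and Mt2, 27 bases for Mt1 and Mt3 and 20 bases for Mt2 and Mt3. How many reads were left unassigned between these paralogs could not be seen in the counts.

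The pool held 12818 cells and 21816565 unique molecular identifiers (UMIs, each counting 1 captured transcript), with 1916305 to 5127776 UMIs per library and a median of 610 to 2499.5 UMIs per cell. T cell identity was checked with Cd3d, Cd3e and Cd3g, of which 90.4% of cells held a UMI. A UMI of the melanoma markers Pmel, Mlana, Dct or Tyrp1 was found in 18 cells. A barcode occurred in 2 libraries 76 times and in more than 2 libraries 0 times, which concerned 152 cells. No doublet caller was run. At this depth 53.3% of cells lacked any UMI of the 4 genes used to gate lineage, which were Cd4, Foxp3 and the 2 Cd8 chain genes.

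Mt1 was the more abundant member. It was found with 7260 UMIs, or 3.33 UMIs per 10000 UMIs (95% Poisson interval 3.25 to 3.41), in 2106 cells (16.4%). Mt2 was found with 556 UMIs, or 0.25 per 10000 (0.23 to 0.28), in 293 cells (2.3%). There were thus 0.077 Mt2 UMIs per Mt1 UMI (0.070 to 0.083). The library captured transcript 5′ ends, so these levels were not divided by length, and the transcripts used here measure 549 and 511 bases. All intervals in this section cover counting error only.

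The libraries differed widely in both members. The Mt1 level was 1.67, 0.39, 2.59, 4.23, 3.58 and 6.09 UMIs per 10000 in libraries 1 to 6. The Mt2 level in the same order was 0.09, 0.01, 0.14, 0.32, 0.34 and 0.46 UMIs per 10000. Library 6 was highest and library 2 lowest for both genes. Depth moved with these levels in part, since libraries 4 and 5 had the deepest cells and library 3 the shallowest. After each cell was thinned to 500 UMIs, the share of cells with an Mt1 UMI was still lowest in library 2 (1.21%) and highest in library 6 (15.4%), against 4.40%, 5.77%, 11% and 10.7% in libraries 1, 3, 4 and 5. The shares before thinning were 9.46%, 2.31%, 7.72%, 29.2%, 27.7% and 29.6% in libraries 1 to 6, and thinning left out 791 cells in all, 692 of them in library 3.

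T cell lineage was gated by UMIs. CD4+ conventional T (Tconv) cells were positive for Cd4 and negative for Foxp3 and both Cd8 genes. CD8+ T cells were positive for either Cd8 gene and negative for Cd4 and Foxp3. Foxp3+ cells were positive for Foxp3 and negative for both Cd8 genes. The Mt1 level was 4.23 UMIs per 10000 (3.98 to 4.48) in 1205 Tconv cells, 3.69 (3.57 to 3.81) in 4497 CD8+ T cells and 3.53 (2.75 to 4.47) in 97 Foxp3+ cells. The Mt2 level was 0.31 (0.24 to 0.38), 0.30 (0.27 to 0.33) and 0.31 (0.11 to 0.67) UMIs per 10000 in the same 3 populations. The order of the 3 populations was therefore not resolved for Mt2, and for Mt1 the interval of Foxp3+ cells overlapped those of CD8+ T cells and Tconv cells. The 6838 cells with no gate UMI had 2.52 Mt1 and 0.17 Mt2 UMIs per 10000, and the 168 cells with both Cd4 and Cd8 UMIs, among which doublets would fall, had 4.43 and 0.45.

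The lineage with the higher level changed from library to library. In Tconv cells the Mt1 level was 3.42, 0.28, 6.26, 5.87, 3.47 and 3.09 UMIs per 10000 in libraries 1 to 6. In CD8+ T cells it was 1.77, 0.30, 2.39, 3.40, 3.93 and 7.59 in the same order. By counting intervals alone, Tconv cells were higher in libraries 1, 3 and 4 and CD8+ T cells in library 6. The intervals overlapped in libraries 2 and 5. In library 3, 1 Tconv cell held 53 of the 83 Mt1 UMIs of its gate, and without it the Tconv level was 2.32 (1.56 to 3.31), which overlapped the CD8+ level.

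Mt2 also changed its order between libraries. In Tconv cells the Mt2 level was 0.25, 0, 0.68, 0.49, 0.17 and 0.13 UMIs per 10000 in libraries 1 to 6, and in CD8+ T cells it was 0.04, 0, 0.13, 0.21, 0.43 and 0.64. By counting intervals alone, Tconv cells were higher in libraries 3 and 4 and CD8+ T cells in libraries 5 and 6. The intervals overlapped in library 1. In library 3, 1 Tconv cell held 7 of the 9 Mt2 UMIs, and without it the Tconv level was 0.15 (0.02 to 0.56), which overlapped the CD8+ level. In library 2 no Mt2 UMI was found in either gate. A floor of 3 counts there equals 0.168 UMIs per 10000 in Tconv cells and 0.0229 in CD8+ T cells, and the 95% Poisson intervals reached 0.207 and 0.0281.

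**Figure D1:**
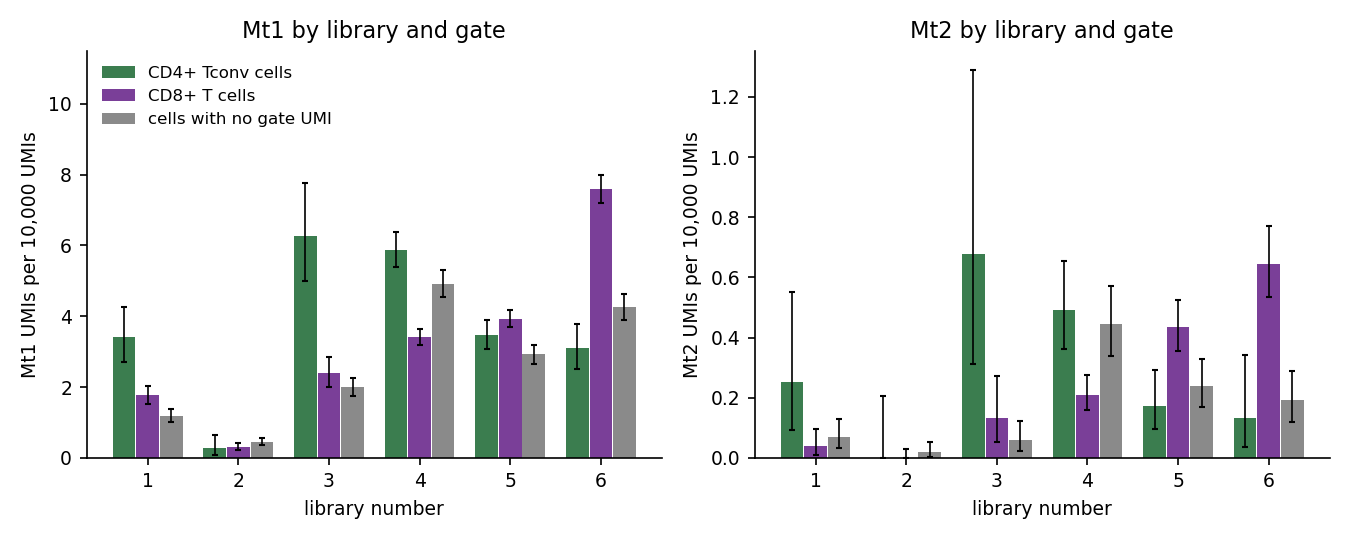
Mt1 (left) and Mt2 (right) UMIs per 10000 UMIs of the same cells, by library number, in Tconv cells, CD8+ T cells and cells with no gate UMI; lines are 95% Poisson intervals. In libraries 1, 3 and 4 the Tconv bar is above the CD8+ bar for both genes, and in library 6 of these 3 populations the CD8+ bar is the highest, at 7.59 for Mt1 and 0.64 for Mt2.

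To compare populations at equal library composition, each ratio below sets the UMIs found in a population over those its comparison cells predict, library by library. A ratio of at least 2 in either direction was counted as a call, among genes with at least 20 UMIs over both populations, and the intervals below cover the counts of both populations. For CD8+ T cells against Tconv cells this ratio was 0.983 (0.919 to 1.05) for Mt1 and 1.14 (0.886 to 1.48) for Mt2, and for Foxp3+ cells against Tconv cells it was 1.15 (0.872 to 1.51) and 1.19 (0.390 to 3.11). All 4 intervals included 1, and no member reached 2-fold. Of 10384 genes, 4.12% were at least 2-fold higher and 4.28% at least 2-fold lower in CD8+ T cells, and of 5196 genes 5.14% were higher and 7.02% lower in Foxp3+ cells. The pooled lineage ratio for Mt2 hid opposite directions, since CD8+ T cells were lower in libraries 1, 3 and 4 (ratios 0.149, 0.195 and 0.428) and higher in libraries 5 and 6 (2.50 and 4.84). Foxp3+ cells numbered 49, 30, 17, 0, 0 and 1 in libraries 1 to 6, counts that were not used to assign a library to PBS or DTx. They could be compared in libraries 1, 2 and 3 only, where the Mt1 ratio was 0.601, 4.03 and 1.94. The Mt1 ratio of Foxp3+ cells was 2.03 without library 1 and 0.724 without library 3, and the Mt2 ratio was 0.731 without library 3.

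CCR8 is the chemokine receptor that the study used to mark a subset of Tconv cells. The study sorted those cells by surface CCR8 protein and lack of EGFP. Here CCR8+ means at least 1 Ccr8 UMI, a measure of RNA, and CCR8- means no Ccr8 UMI. Treg cells whose Foxp3 transcript was not captured would fall in the Tconv gate, and their share was not tested. The 117 CCR8+ Tconv cells had 10.7 Mt1 UMIs per 10000 (9.76 to 11.7), and the 1088 CCR8- Tconv cells had 2.93 (2.71 to 3.17). The Mt2 level was 1.08 (0.80 to 1.44) in CCR8+ and 0.15 (0.10 to 0.21) in CCR8- Tconv cells. The within-library ratio was 3.32 (2.94 to 3.74) for Mt1 and 5.89 (3.69 to 9.48) for Mt2, ranks 28 and 4 from the highest of 7721 genes, of which 2.53% were at least 2-fold higher and 7.05% at least 2-fold lower. After thinning to 500 UMIs, 23.1% of CCR8+ and 7.03% of CCR8- Tconv cells held an Mt1 UMI, against 45.3% and 17.1% before thinning. No cell population known to lack the members was compared, so the part of free RNA in these shares was not tested.

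In the 4 libraries with at least 10 CCR8+ Tconv cells, both genes were higher in CCR8+ cells. Library 3, with 7 CCR8+ cells, was left out of this count but not of the pooled ratios. It held 0 Mt2 UMIs in those 7 cells and 9 in 116 CCR8- cells. Leaving library 3 out gave ratios of 3.67 for Mt1 and 7.87 for Mt2. The Mt1 level in CCR8+ Tconv cells was 5.30, 14.3, 8.75 and 5.05 UMIs per 10000 in libraries 1, 4, 5 and 6, against 2.91, 3.25, 2.68 and 2.91 in CCR8- cells. CCR8- cells thus had nearly the same level in the 4 libraries, and library 4 stood highest among CCR8+ cells. For Mt2 the counts behind these levels were 3, 34, 7 and 3 UMIs in CCR8+ and 3, 13, 7 and 1 UMIs in CCR8- cells of the same libraries. Without library 4 the ratio was 2.12 for Mt1 and 3.26 for Mt2, and with each cell counted for at most 3 UMIs of the gene the Mt1 ratio was 1.78, below 2-fold. Median depth was 3069 UMIs in CCR8+ and 1515.5 in CCR8- cells, and matching cells by depth quartile as well as library gave ratios of 2.55 and 4.10. In CD8+ T cells the difference was smaller, at 5.54 Mt1 UMIs per 10000 in 118 CCR8+ cells and 3.6 in 4379 CCR8- cells. Within libraries the ratio was 1.43 (1.25 to 1.64), or 2.71 with at least 2 Ccr8 UMIs required, for Mt1 and 1.39 (0.822 to 2.21) for Mt2, where 3.97% of 9983 genes were at least 2-fold higher and 9.09% at least 2-fold lower. The difference between the Tconv and CD8+ ratios was not tested.

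Tconv cells with UMIs of the type 2 cytokines had levels whose intervals overlapped those of CCR8+ Tconv cells, and 39 cells were in both groups. The 142 Tconv cells with an Il4, Il5 or Il13 UMI had 11.4 Mt1 UMIs per 10000 (10.5 to 12.3) and 1.0 Mt2 UMIs (0.75 to 1.3), and the 1063 others had 2.31 and 0.12. Compared within libraries the ratio was 5.85 (5.18 to 6.60) for Mt1 and 15.7 (9.63 to 26.3) for Mt2, ranks 28 and 13 of 7541 genes, of which 4.18% were at least 2-fold higher and 6.86% at least 2-fold lower. Both genes were higher in the 3 libraries compared. The Mt1 level was 14.7, 7.19 and 5.56 UMIs per 10000 in cytokine-positive cells of libraries 4, 5 and 6, against 1.47, 2.41 and 2.64 in the others.

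The size of this difference rested on library 4. For Mt2 the counts were 45, 9 and 1 UMIs in 73, 45 and 20 cytokine-positive cells of libraries 4, 5 and 6, against 2, 5 and 3 UMIs in 232, 248 and 168 other cells. Without library 4 the ratio was 2.63 for Mt1 and 3.98 for Mt2. Median depth was 3489.5 UMIs in cytokine-positive cells and 1491 in the others, and the depth-matched ratios were 5.61 and 13.7. With each cell capped at 3 UMIs of the gene the ratios were 2.40 and 9.68.

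CCR8 and the cytokines were then crossed, a split made after the values above were seen. The Mt1 level was 19.6 UMIs per 10000 (17.6 to 21.8) in 39 Tconv cells with CCR8 and a cytokine, 7.34 (6.50 to 8.26) in 103 cells with a cytokine only, 4.37 (3.6 to 5.27) in 78 cells with CCR8 only and 2.02 (1.82 to 2.24) in 985 cells with neither. The Mt2 level in the same order was 2.16, 0.43, 0.32 and 0.09 UMIs per 10000, on 39, 16, 8 and 17 Mt2 UMIs. The Mt2 intervals of the groups with a cytokine only (0.25 to 0.70) and CCR8 only (0.14 to 0.62) overlapped. The pooled Mt1 intervals of the 4 groups did not overlap, but 25 of the 39 cells with CCR8 and a cytokine were in library 4. Without library 4 the Mt1 level was 10.5 (7.96 to 13.5), 5.63 (4.59 to 6.84), 5.44 (4.33 to 6.74) and 2.36 (2.10 to 2.65) in the same order, so the groups with a cytokine only and CCR8 only overlapped. In library 6 the 4 cells with CCR8 and a cytokine held 0 Mt1 UMIs. Among cytokine-positive cells, CCR8+ cells had 2.46 times (2.10 to 2.90) the expected Mt1 UMIs and 4.29 times (2.34 to 8.22) the expected Mt2 UMIs. With library 4 left out these ratios were 1.80 and 4.42, and with each cell capped at 3 UMIs they were 1.27 and 3.58.

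Single cytokines were compared over pooled libraries. The Mt1 level was 20.4 UMIs per 10000 in 32 Il5+ Tconv cells, 15 in 65 Il13+ cells and 9.05 in 104 Il4+ cells, and the Mt2 level was 2.14, 1.61 and 0.84. These groups share cells, and 20, 37 and 53 of them were in library 4. The Mt1 level without library 4 was 13.7 (10.6 to 17.5), 10.1 (8.36 to 12.1) and 6.95 (5.75 to 8.32) in the same order, so Il5+ and Il13+ cells were not resolved. In library 6 the level of 4 Il13+ cells was above that of 5 Il5+ cells, at 9.41 against 8.65, with overlapping intervals. Tconv cells with a UMI of Ifng, the type 1 cytokine, were on the low side, with 2.61 Mt1 and 0.08 Mt2 UMIs per 10000 in 349 cells against 5.11 and 0.43 in 856 cells without. That ratio was 0.470 (0.405 to 0.542) for Mt1 and 0.163 (0.063 to 0.354) for Mt2 although Ifng+ cells were the deeper ones, at a median of 2143 against 1399.5 UMIs. Without library 4 the Ifng ratios were 0.647 and 0.322, and with each cell counted for at most 3 UMIs of the gene they were 0.877 and 0.257.

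**Figure D2:**
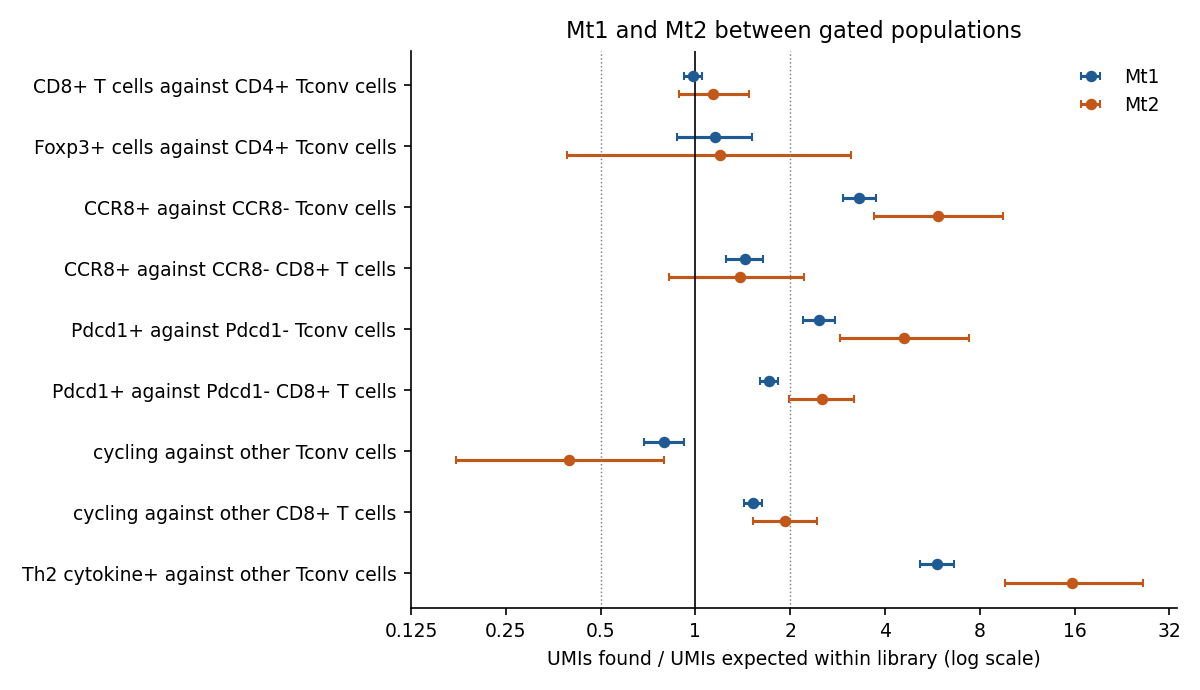
UMIs found divided by UMIs expected within library for Mt1 and Mt2 in the 9 comparisons, on a log axis; points are ratios, lines are 95% intervals covering the counts of both populations, and dotted lines mark 2-fold. The 3 comparisons of Tconv cells by CCR8, Pdcd1 and cytokines lie above 2 for both genes, up to 15.7 for Mt2, and the Mt2 point of cycling Tconv cells lies below 0.5, at 0.396.

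Pdcd1 encodes PD-1, a checkpoint receptor of activated and exhausted T cells. The 813 Pdcd1+ CD8+ T cells had 5.97 Mt1 UMIs per 10000 (5.68 to 6.27) and 0.60 Mt2 UMIs (0.51 to 0.70), against 2.84 and 0.19 in 3684 Pdcd1- cells. Within libraries the ratio was 1.72 (1.61 to 1.84) for Mt1 and 2.52 (1.99 to 3.19) for Mt2, a call for Mt2 only, where 1.54% of 9983 genes were at least 2-fold higher and 1.6% at least 2-fold lower. Mt1 was higher in Pdcd1+ cells in 5 of 5 libraries, at 2.95, 2.51, 4.21, 4.74 and 12.9 against 1.51, 2.35, 2.96, 3.50 and 5.39 UMIs per 10000 in libraries 1, 3, 4, 5 and 6. Mt2 was higher in 3 of 5 libraries, and libraries 5 and 6 carried 142 of the 162 Mt2 UMIs of Pdcd1+ cells. Without library 6 the ratios were 1.41 and 1.77, below 2-fold for both, and with at least 2 Pdcd1 UMIs required they were 2.13 and 3.6, above 2-fold for both.

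Among Tconv cells the 206 Pdcd1+ cells had 7.70 Mt1 and 0.71 Mt2 UMIs per 10000, against 3.04 and 0.17 in 999 Pdcd1- cells. The ratio was 2.47 (2.19 to 2.79) for Mt1, higher in 4 of 4 libraries, and 4.59 (2.88 to 7.40) for Mt2, higher in 3 of 4. In this comparison 2.66% of 7721 genes were at least 2-fold higher and 3.37% at least 2-fold lower. Without library 4 the ratios were 1.77 and 2.96, so the Mt1 ratio was then below 2-fold. Median depth was 2563.5 UMIs in Pdcd1+ and 1483 in Pdcd1- Tconv cells.

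Cycling cells, with a UMI of the proliferation genes Mki67 or Top2a, were among the deepest, at a median of 3655 UMIs against 1573 in other CD8+ T cells and 3888 against 1477 in other Tconv cells. In 588 cycling CD8+ T cells the Mt1 level was 6.13 and the Mt2 level 0.59 UMIs per 10000, against 2.95 and 0.21 in 3909 others. The ratio was 1.52 (1.42 to 1.63) for Mt1 and 1.92 (1.52 to 2.43) for Mt2. Mt1 was higher in 5 of 5 libraries and Mt2 in 4 of 5. Library 6 held 78 of the 135 Mt2 UMIs of cycling CD8+ T cells, and without it the ratios were 1.36 and 1.32. After thinning to 500 UMIs, 18.7% of cycling and 8.90% of other CD8+ T cells held an Mt1 UMI. The Mt2 shares were 1.36% (0.59 to 2.66) and 0.83% (0.57 to 1.17), with overlapping intervals. Over all libraries neither ratio reached 2-fold, while 6.43% of 9983 genes were at least 2-fold higher and 3.5% at least 2-fold lower. With each cell counted for at most 3 UMIs of the gene, the Mt1 ratio was 0.940, so its direction rested on cells with more than 3 Mt1 UMIs.

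In Tconv cells the cycling ratio was below 1, and its difference from the CD8+ ratio was not tested. The 157 cycling Tconv cells had 3.61 Mt1 and 0.14 Mt2 UMIs per 10000, against 4.43 and 0.36 in 1048 others. The ratio was 0.797 (0.687 to 0.923) for Mt1 and 0.396 (0.174 to 0.794) for Mt2, on 9 Mt2 UMIs found against 22.7 expected. In this comparison 6.01% of 7721 genes were at least 2-fold lower and 6.2% at least 2-fold higher. Cycling Tconv cells were lower in Mt1 in libraries 4 and 5 (4.05 against 6.44 and 3.24 against 3.61) and close to the others in library 6 (3.23 against 3.06). The capped Mt1 ratio was 1.20, and without library 4 the uncapped ratios were 0.969 and 0.096.

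Pdcd1 and cycling were also crossed in CD8+ T cells, again after the values above were seen. The Mt1 level was 7.79 UMIs per 10000 (7.25 to 8.36) in 215 cells positive for both, 4.90 (4.58 to 5.25) in 598 cells with Pdcd1 only, 4.87 (4.5 to 5.26) in 373 cycling cells without Pdcd1 and 2.38 (2.26 to 2.51) in 3311 cells with neither. The Mt2 level in the same order was 0.94, 0.41 (0.32 to 0.51), 0.32 (0.23 to 0.43) and 0.15. The groups positive for 1 of the gates had overlapping Mt1 intervals, and the group positive for both was above them in the pool. Without library 6 it had 4.71 (4.20 to 5.26), against 3.96 (3.64 to 4.29) with Pdcd1 only and 3.96 (3.56 to 4.39) in cycling cells without Pdcd1, and the intervals overlapped. In library 1 it was the lowest of these 3 groups, at 1.42 against 3.49 and 4.51, and in library 3 it was 2.58 against 2.45 and 7.93. Against cells with neither in the same library, cells positive for both had ratios of 2.27 (2.08 to 2.48) for Mt1 and 4.15 (3.07 to 5.60) for Mt2. Without library 6 those were 1.69 and 2.39, and with each cell capped at 3 UMIs they were 1.10 and 3.06, where cells with Pdcd1 only had a capped Mt1 ratio of 1.28.

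**Figure D3:**
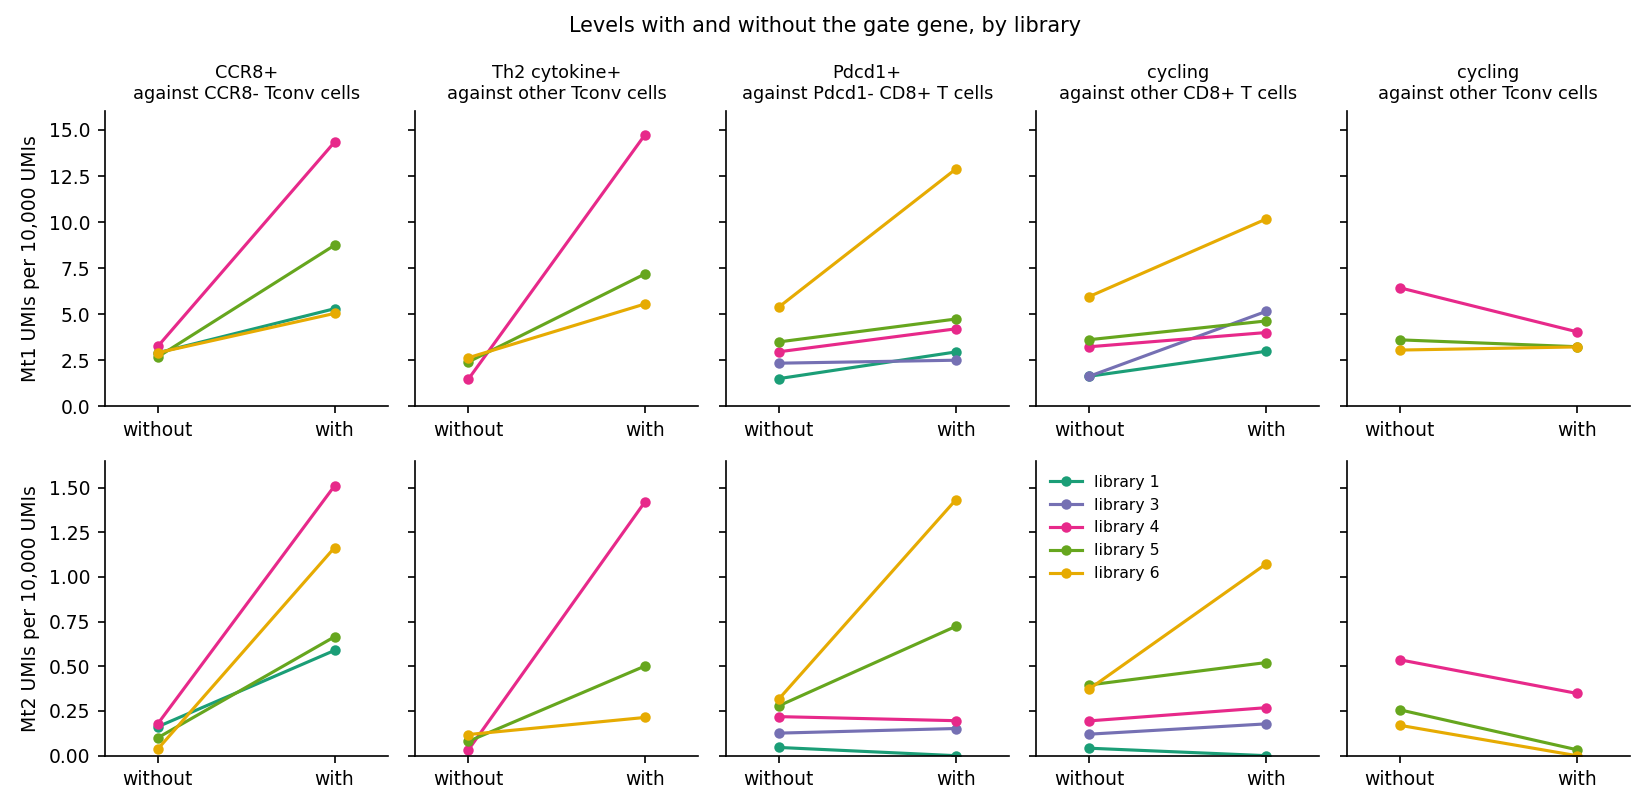
Mt1 (top) and Mt2 (bottom) UMIs per 10000 UMIs in cells without and with the gate gene, for 5 comparisons; each line is 1 library with at least 10 cells in both populations. In Tconv cells split by CCR8 every line goes up, with library 4 reaching 14.3 for Mt1, and in CD8+ T cells split by Pdcd1 library 6 reaches 12.9.

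The UMIs of both members were concentrated in few cells. Cells that held at least 5 Mt1 UMIs numbered 387 and held 57.6% of all Mt1 UMIs, and the 44 cells with at least 20 held 1387 of 7260 UMIs (19.1%). The highest count in a single cell was 62 for Mt1 and 14 for Mt2, both in library 6. Libraries 3, 4, 5 and 6 held 3, 18, 9 and 14 of the 44 cells, and libraries 1 and 2 held 0. By lineage 20 were CD8+ T cells, 11 were Tconv cells, 1 was a Foxp3+ cell, 2 held both Cd4 and Cd8 UMIs and 10 held no gate UMI.

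The 44 cells with most Mt1 often carried the gate genes. A Pdcd1 UMI was present in 29, a Mki67 or Top2a UMI in 24, a Ccr8 UMI in 19, an Il4, Il5 or Il13 UMI in 19 and an Mt2 UMI in 36. Over all cells 11.9% held a Pdcd1 UMI, 8.61% a Mki67 or Top2a UMI, 4.53% a Ccr8 UMI and 2.3% an Mt2 UMI. Median depth of the 44 cells was 5686.5 UMIs, against 1131 in cells without Mt1, so depth moved with the Mt1 count. The counts of gate genes in the 44 cells were not matched by depth. A Cd3 UMI was present in 43 of them and a melanoma marker UMI in 1.

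Mt2 detection followed the Mt1 count. An Mt2 UMI was present in 0.34% of 10712 cells without Mt1 (95% Clopper-Pearson interval 0.24 to 0.46) and in 3.29% (2.23 to 4.67) of 911 cells with 1 Mt1 UMI. It was present in 12.1% (9.96 to 14.6) of 808 cells with 2 to 4, in 19.4% (14.7 to 24.8) of 253 cells with 5 to 9, in 48.9% (38.2 to 59.7) of 90 cells with 10 to 19 and in 81.8% (67.3 to 91.8) of the 44 cells with 20 or more. Median depth in these classes ran from 1131 to 5686.5 UMIs.

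**Figure D4:**
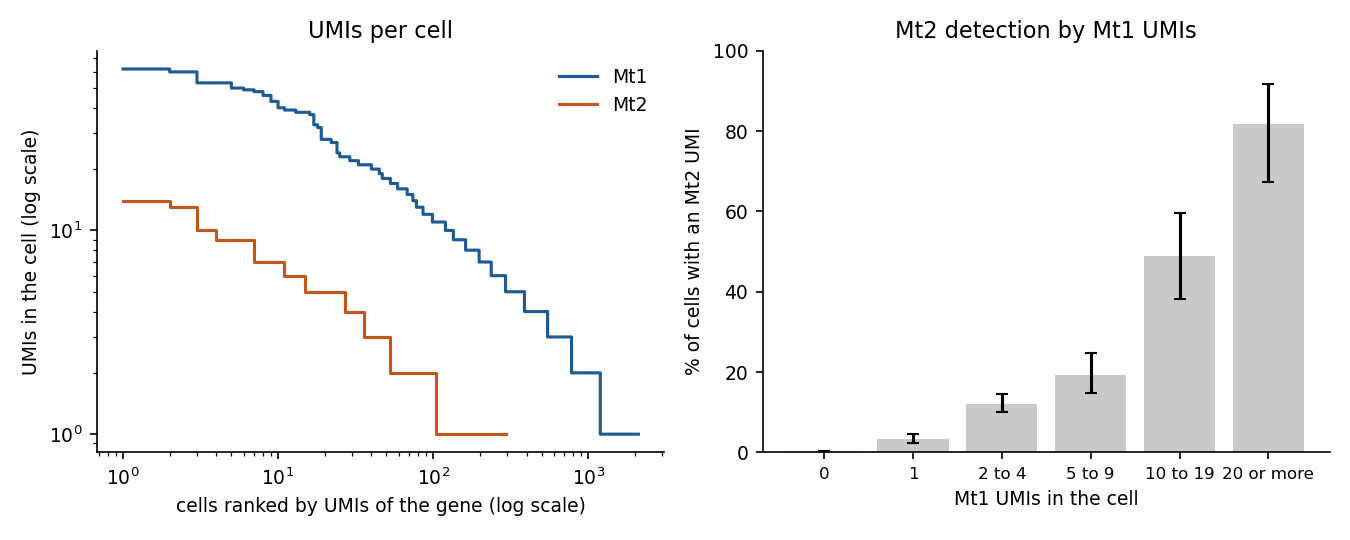
Left, UMIs of Mt1 and of Mt2 in each cell that held any, ranked from the highest, both axes on a log scale; right, share of cells with an Mt2 UMI by the number of Mt1 UMIs in the cell, with 95% Clopper-Pearson intervals. The Mt1 curve starts at 62 and the Mt2 curve at 14, and the Mt2 share goes from 0.34% to 81.8%.

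Both members were found in 257 cells, and Mt2 without Mt1 in 36. Matched by library and depth quartile, 115 cells with both were expected, a ratio of 2.23 (1.97 to 2.53), and matched by library alone the ratio was 3.41 (3.0 to 3.85). The number found exceeded the depth-matched number in 6 of 6 libraries, at 14, 2, 12, 69, 78 and 82 cells against 3.83, 0.04, 3.18, 30.7, 37.1 and 40.2. The 2 cells of library 2 held no UMI of the 6 T cell genes among 1214 UMIs. Of 8657 genes in at least 100 cells, 0.0116% reached 2 times the expected co-detection with Mt1, which was Mt2 alone. This ratio has a low ceiling for Mt1, which was common in deep cells. Of the 293 cells with Mt2, 115 were already expected to hold Mt1. Mt3 had a ratio of 1.86 (1.55 to 2.21) with Mt1, whose interval overlapped that of Mt2.

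The genes most often found together with each member were ranked by the same depth-matched ratio, leaving out genes at or below expectation in any library with at least 3 expected cells. For Mt1 they were Mt2, then Mt3 (1.86, 126 cells with both), Cxcl2, a neutrophil chemokine (1.78, 44 cells), Igfbp7 (1.72, 90 cells) and Tox2, an HMG-box transcription factor (1.71, 88 cells). For Mt2 they were Ptprs (3.33, 18 cells), Cd81, a tetraspanin (3.11, 36 cells), Ldhb, a lactate dehydrogenase subunit (3.09, 8 cells), Tmem107 (2.98, 20 cells) and Ift57 (2.97, 18 cells). The 5 partners of Mt1 were above expectation in each of the 3 to 5 libraries with at least 3 expected cells. Among the partners of Mt2 only Cd81 had such libraries, 2 of them, so the order of the other 4 had no check by library. The Mt2 ranking rested on few cells, and 1.66% of the 8657 genes reached 2 times expectation with Mt2. That share cannot be set against the share for Mt1, since Mt1 was found in more cells and its ratio had a lower ceiling. Mt3 itself was found 34 times with Mt2 against 11.7 expected, a ratio of 2.91 (2.02 to 4.07).

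The 257 cells with both members were compared with the 10676 cells with neither, matched by library and depth quartile, to describe what else they carried. Median depth before matching was 3852 and 1130 UMIs. Of 10519 genes, 427 (4.06%) were at least 2-fold higher and 704 (6.69%) at least 2-fold lower in cells with both, and the median log2 ratio was -0.02. The cells were chosen by their Mt1 and Mt2 UMIs, and these ratios are a description.

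The other genes of zinc and metal handling were described as a list. Of 24 with at least 20 UMIs, 2 were at least 2-fold higher, 0 were 2-fold lower, and the median log2 ratio was -0.02. Mt3 had 71 UMIs against 6.25 expected (log2 3.41), in 32 of the 257 cells and in the same direction in the 3 libraries with at least 10 UMIs. Slc30a1, the zinc exporter of the plasma membrane, had 25 against 12.2 (log2 1.0). Mtf1, which encodes the zinc-sensing factor, had 25 against 30.9, and the iron storage genes Fth1 and Ftl1 had log2 ratios of -0.07 and 0.03. Leaving out each library in turn gave log2 ratios of 2.85 to 3.68 for Mt3, the lowest without library 4, where Slc30a1 was 0.82, and Slc30a1 was also below 2-fold without library 3, at 0.98. Mt4, also in this list, was not among the 14597 genes counted.

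Mt3 was measured over all cells too. It was found with 286 UMIs in 206 cells, or 0.20, 0.01, 0.18, 0.15, 0.09 and 0.19 UMIs per 10000 in libraries 1 to 6, so library 2 was lowest for Mt3 as for the members. The Mt3 level was 0.62 (0.41 to 0.90) in CCR8+ and 0.11 (0.07 to 0.16) in CCR8- Tconv cells, with libraries pooled and not matched. The 27 Mt3 UMIs of CCR8+ Tconv cells were in 14 cells. Libraries 1 to 6 held 5, 0, 3, 17, 2 and 0 of them.

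With all libraries the Th2 list had the largest share of 2-fold higher genes among the 8 lists described here, with 8 of 10, and a median log2 ratio of 1.34. They were the cytokines Il13 (log2 2.17), Il5 (2.12) and Il4 (1.09), the enkephalin precursor Penk (1.82), the growth factor Areg (1.61), the CGRP gene Calca (1.52), the IL-33 receptor Il1rl1 (1.16) and Ccr8 (1.16). Most of this came from library 4: without it, 2 of 10 were at least 2-fold higher, Il13 (1.67) and Penk (2.12), and the median was 0.32, against 2 of 8 and 0.62 for checkpoint receptors. Il5 was then 0.14 and Il4 0.23. Penk in turn rested on library 5, without which it was -0.20. Gata3, the lineage factor of Th2 cells, had a log2 ratio of -0.25 with all libraries, and the transcription factor Maf, also in the list, had -0.46. The list was chosen with earlier results of these data known. It also holds Ccr8, Il4, Il5 and Il13, which were already used as gates above. Its place among the lists is therefore a description and not a test.

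Checkpoint receptors had the same number of calls with and without library 4. Lag3 (log2 1.33) and Pdcd1 (1.06) were 2 of 8 genes at least 2-fold higher, Havcr2 was 0.40 and Tigit -0.30. Without library 4 Lag3 was 1.27 and Pdcd1 1.12, and without library 6 Pdcd1 was 0.89. Of the hypoxia genes, 1 of 12 was at least 2-fold higher, the mitophagy gene Bnip3 (1.67), with a list median of 0.53. Ndrg1 (0.98), Ero1l (0.97), Pgk1 (0.62) and Ldha (0.50) were below 2-fold.

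The inducers known for metallothioneins were represented by lists. Of 10 genes of the oxidative stress list with at least 20 UMIs, Hmox1, the heme oxygenase (19 against 6.12 UMIs, log2 1.56), and Srxn1, a sulfiredoxin (10 against 1.25, log2 2.59), were 2-fold higher. The list median was 0.21, and the other genes tested ran from -0.38 (Prdx6) to 0.45 (Txn1). Neither Hmox1 nor Srxn1 had 10 UMIs in any library, so their directions had no check by library. Without the cells holding melanoma marker UMIs Hmox1 was 1.15 and Srxn1 2.45. With those cells left out Srxn1 was under 20 UMIs over both populations, so 1 of 9 genes was called. Srxn1 was also under 20 UMIs without library 1, 4, 5 or 6, and without library 1 it had 4 UMIs against 1.13 (log2 1.46). Bnip3 was 1.29 without the melanoma marker cells. Of 10 glucocorticoid response genes 0 were higher, and 1 was lower, Zbtb16, with 0 UMIs against 1.09 expected, which gives no fold. Tsc22d3 and Fkbp5, which glucocorticoids induce, had log2 ratios of -0.47 and -0.18. In the immediate early and dissociation list, 0 of 11 were 2-fold higher and 1 was lower, Jun (-1.13, 206 against 452 UMIs). Of 8 cytotoxic genes none was called, with Gzmb at 0.87 and Gzmc at 0.99.

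The genes with the largest ratios were mostly carried by few cells or by 1 library. Mlana, a melanocyte antigen, had 26 UMIs in 8 of the 257 cells and 0 in those without melanoma markers. Bex1 (log2 5.01, 14 cells), Ctsh (4.20, 14 cells), Nlrp3 (3.16, 7 cells), Gm13522 (3.07, 5 cells) and Cxcl3 (2.75, 10 cells) had most of their UMIs in library 4. Spp1, encoding osteopontin, had 24 of 32 UMIs in 1 cell, and Hspb1, a small heat shock protein, had 104 of 108 in 1 cell. Tmem273 (2.85) was found in 7 cells, and Mt3 was the only one of these 10 genes with at least 10 UMIs in 3 libraries.

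The 5 genes with the lowest ratios were found in 11 to 20 of the 257 cells. Tcf7, a transcription factor of naive and memory T cells, had 18 UMIs against 64.5 expected (log2 -1.81), lower in 4 of 4 libraries. Slfn1, a Schlafen family gene, had a log2 ratio of -1.61, S1pr1, the receptor for egress from tissue, of -1.55, Ripor2 of -1.52 and the chemokine gene Cxcl10 of -1.45.

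**Figure D5:**
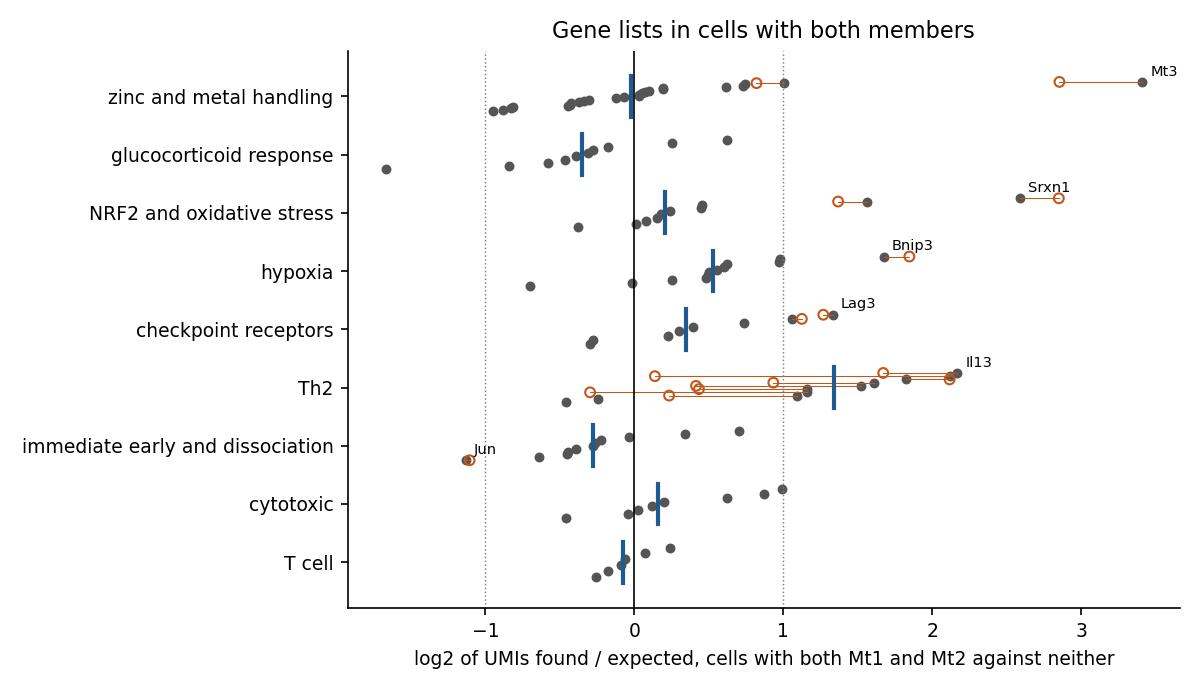
Log2 ratio of UMIs found to expected in the 257 cells with both members against cells with neither, for each gene with at least 20 UMIs in 9 lists; blue bars are list medians, open circles and lines show the value without library 4 for genes past 2-fold in most lists, and dotted lines mark 2-fold. Mt3 stands apart at 3.41 in the zinc list. Without library 4 the Th2 genes past 2-fold move toward 0, except Penk, which goes from 1.82 to 2.12.

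Markers of other cell types were counted beside these values. The 6 T cell genes summed to 36.8 UMIs per 10000 in cells with both members and 40.1 in cells with neither. By library they ranged from 32.5 to 40.5 in the cells with both of 5 libraries and were at 0 in the 2 such cells of library 2, and in cells with neither they ranged from 38.0 to 42.7. Of 4 melanoma markers, all 4 were seen in cells with both, at 0.32 UMIs per 10000 against 0.0052, and the 18 cells with such a UMI included 9 with both members and held 133 Mt1 and 24 Mt2 UMIs. Among myeloid markers 3 of 4 were seen, at 0.41 against 0.33, with Csf1r at 0. Of B cell markers 1 of 2 was seen and Cd79a was at 0, and of stromal markers 2 of 2 were seen, at 0.03 UMIs per 10000. Of 3 NK markers 2 were seen, with Klra8 at 0, and the endothelial marker Pecam1 was seen at 0.09 against 0.31. By library, melanoma markers ranged from 0 to 8.24 UMIs per 10000 in cells with both and from 0 to 0.02 in cells with neither. Without the 18 cells, the Th2 count stayed at 8 of 10 and Mt3 at a log2 ratio of 3.42.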

How the data were processed

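The authors prepared 5′ droplet libraries and deposited 1 table of UMI counts, not normalized, for 14597 genes and 12818 cells. Their methods give Cell Ranger 5.0.0 and mm10 (the labels list mm9) and Seurat 3.2.2, with cells kept at 200 to 2500 genes and under 5% mitochondrial transcripts. Depth was 1916305 to 5127776 UMIs per library. The number closing each cell name was used as the library, and no test or p-value was computed. Counts were summed with Python 3.11.15, pandas 2.3.3 and SciPy 1.17.1 as UMIs per 10000 with exact Poisson intervals, shares with Clopper-Pearson intervals, and ratios matched by library, where a pseudocount of 0.5 entered the log2 values and calls. The ratio code was tested on simulated counts of 2 comparisons. For CCR8+ against CCR8- Tconv cells, 6.25% of unchanged genes were still called in either direction, and for cells with both members against neither 6.68%. The shares of all genes called above therefore include counting error. Of genes changed 4-fold, 93.2% to 100% were called in the right direction. The members and gene lists were chosen with earlier results of these data known. Genes named beside the members were the gate genes, the 5 most co-detected with each member, the 10 highest and 5 lowest in cells with both, list genes past 2-fold, and, chosen after their values were seen, list members below 2-fold and Ifng. Alternatives changed matching, depth, gates, caps and libraries; melanoma-marker cells, shared barcodes, crossed gates, gate levels without single libraries and lineage levels without the highest cell were added after seeing the data. Coding sequences are from GENCODE M21. A planned cell gate and marker list is not reported here.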

Additional observations from a re-analysis of the deposited data

How the results depend on the processing

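No paired analysis was possible because the library numbers of the cells were linked to no labelled sample and no value came from a test between groups. Gates by UMI presence miss cells of low depth, counting intervals leave out variation between mice, and 1 library often carries a value. Of 291 values under alternatives for 25 results, 197 lay within the counting interval of the value (for the count of genes, within 1.5 times), and 92 lay outside it. The other 2 reversed, since the interval left out 1 and the alternative lay on the other side of 1. For ratios the interval covered the counts of both populations. The 4 lineage ratios, whose intervals included 1, also changed side 12 times, 7 of them with a library left out. The cause of these moves was not tested. Leaving out cells with melanoma marker UMIs or with barcodes shared between libraries moved none of the 25 beyond its interval.

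The overall level was 2.20 for Mt1 and 0.142 UMIs per 10000 for Mt2 with each cell counted equally, 3.09 and 0.227 with each library counted equally, and 1.87 and 0.206 with each cell capped at 3 UMIs. The detected share was 7.77% and 0.649% after thinning to 500 UMIs, 23.0% and 2.79% at 1500 UMIs, and 9.32% and 0.811% with at least 2 UMIs required. Mt2 UMIs per Mt1 UMI were 0.110 with the cap and 0.0631 as a mean over libraries. The co-detection ratio was 5.34 with libraries pooled, 2.23 matched by depth and 5.71 with at least 2 UMIs of each gene. Genes at least 2-fold higher in cells with both members numbered 219 with at least 50 UMIs required and 1196 with no filter.

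Libraries were also pooled with no matching, where the Mt2 ratio of CD8+ T cells against Tconv cells was 0.975. For Mt1 the ratio was 0.873 for CD8+ T cells against Tconv cells, 0.835 for Foxp3+ against Tconv cells, 2.10 for Pdcd1 in CD8+ T cells, 2.08 for cycling in CD8+ T cells and 4.91 for type 2 cytokines in Tconv cells. The Mt2 ratio was 3.25 for Pdcd1 in CD8+ T cells, 2.77 for cycling in CD8+ T cells and 8.20 for type 2 cytokines in Tconv cells.

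Cells were also matched by depth quartile as well as library. For Mt1 the ratio was 0.866 for Foxp3+ against Tconv cells, 2.55 for CCR8 in Tconv cells, 2.09 for Pdcd1 in Tconv cells, 1.60 for Pdcd1 in CD8+ T cells, 0.546 for cycling in Tconv cells and 1.3 for cycling in CD8+ T cells.

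Gate genes were also required at 2 or more UMIs. For Mt1 the ratio was 2.68 for CCR8 in Tconv cells, 2.71 for CCR8 in CD8+ T cells, 3.38 for Pdcd1 in Tconv cells, 2.13 for Pdcd1 in CD8+ T cells, 0.575 for cycling in Tconv cells, 1.69 for cycling in CD8+ T cells and 6.75 for type 2 cytokines in Tconv cells. The Mt2 ratio was 3.6 for Pdcd1 in CD8+ T cells and 0.150 for cycling in Tconv cells.

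Cells were also capped at 3 UMIs of the gene, which reversed both Mt1 cycling ratios. For Mt1 the ratio was 1.26 for CD8+ T cells against Tconv cells, 1.78 for CCR8 in Tconv cells, 1.18 for CCR8 in CD8+ T cells, 1.59 for Pdcd1 in Tconv cells, 1.24 for Pdcd1 in CD8+ T cells, 1.20 for cycling in Tconv cells, 0.940 for cycling in CD8+ T cells and 2.40 for type 2 cytokines in Tconv cells.

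With each library left out in turn, the Mt1 ratio ranged from 0.710 to 1.27 for CD8+ T cells against Tconv cells, 0.724 to 2.03 for Foxp3+ against Tconv cells, 2.12 to 3.67 for CCR8 in Tconv cells, 1.25 to 1.68 for CCR8 in CD8+ T cells, 1.77 to 2.64 for Pdcd1 in Tconv cells, 1.41 to 1.90 for Pdcd1 in CD8+ T cells, 0.739 to 0.969 for cycling in Tconv cells, 1.36 to 1.63 for cycling in CD8+ T cells and 2.63 to 7.78 for type 2 cytokines in Tconv cells. In the same way the Mt2 ratio ranged from 0.743 to 1.83 for CD8+ T cells against Tconv cells, 0.731 to 1.73 for Foxp3+ against Tconv cells, 3.26 to 7.87 for CCR8 in Tconv cells, 1.10 to 1.75 for CCR8 in CD8+ T cells, 2.96 to 5.33 for Pdcd1 in Tconv cells, 1.77 to 3.25 for Pdcd1 in CD8+ T cells, 0.0958 to 0.531 for cycling in Tconv cells, 1.32 to 2.39 for cycling in CD8+ T cells and 3.98 to 22.2 for type 2 cytokines in Tconv cells. The Mt2 ratio of CD8+ T cells against Tconv cells was below 1 without library 5, at 0.865, and without library 6, at 0.743. The Mt1 and Mt2 levels ranged from 2.80 to 3.83 and 0.215 to 0.297 UMIs per 10000, the detected shares from 13.9 to 20.1% and 1.90 to 2.85%, the co-detection ratio from 3.31 to 3.55, Mt2 UMIs per Mt1 UMI from 0.0708 to 0.0782 and the genes at least 2-fold higher from 408 to 457.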
